A study of Mus musculus with 13 samples.

Results

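Stroma 1 is one of the 2 stromal clusters that single-nucleus ATAC sequencing (snATAC-seq, which maps open chromatin in single nuclei with Tn5 transposase) resolved in the developing and adult mouse kidney. Its members are all nuclei that the annotation deposited with the data assigns to that cluster, 1479 of 28316 nuclei (5.22%), and they come from all 5 snATAC-seq samples. The samples were whole mouse kidneys, 2 labelled P0, 1 of P21 and 2 of P56, and P21 and P56 were grouped as adult. The deposited protocol gives 1-day-old mice, an age that the paper's methods state for its scRNA-seq mice, while they call the snATAC-seq mice P0. No treatment, transgene or mutation is given for any of the groups. The strain and sex of these mice are not given in their labels or in the paper's snATAC-seq methods. The paper's methods name a strain for the scRNA-seq mice. Nothing states that samples of one stage came from separate animals. The p-values for stroma 1 between stages therefore measure the spread between samples. Stroma 1 was compared with the 11 clusters that are not stromal, namely nephron progenitors, podocytes, proximal convoluted tubule (PCT), proximal straight tubule (PST), intercalated cells, principal cells, connecting tubule, distal convoluted tubule, loop of Henle, endothelial cells and immune cells. Stroma 2 was left out of that comparison and set beside stroma 1 separately, and 664 nuclei of 2 further clusters were not compared.

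The renal stroma is the mesenchymal compartment between the nephrons. In the embryo it descends largely from cells that express the transcription factor Foxd1, which give rise to interstitial fibroblasts, pericytes, vascular smooth muscle, mesangial cells and the renin cells of the arterioles. Stromal cells lay down collagen and elastic fibres, contract around vessels, and signal to neighbouring cells through retinoic acid and the protocadherin Fat4. A gene that is active in these cells usually has open chromatin at its start and at distal enhancers, which is what snATAC-seq records, and open chromatin is not itself a measure of expression.

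Each value starts from a call of open or closed for each of 300755 peaks in each nucleus. The level of a peak is the share of nuclei in which it was open. The activity of a gene is the number of open calls in peaks over its body and the 2 kb before its start, scaled to 1000000 open calls of the same sample and cluster (CPM), and depends on gene length, so it was compared between clusters and stages and not between genes. Stroma 1 numbered 690 and 491 nuclei in the P0 samples, 90 at P21, and 107 and 101 in the P56 samples. Among the nuclei of the 13 cell types these were 11.7% (exact 95% interval 10.9 to 12.5) and 9.17% (8.41 to 9.97) at P0, 2.77% (2.23 to 3.39) at P21, and 1.54% (1.27 to 1.86) and 1.63% (1.33 to 1.98) at P56. Both P0 shares were above every adult share, and the exact permutation test (two-sided, 2 against 3 samples) gave p = 0.2, the smallest it can give. Among stromal nuclei, stroma 1 made up 34.5% and 30.0% in the P0 samples, 30.4% in the P21 sample, and 16.7% and 22.7% in the P56 samples, where the stages overlapped (exact permutation p = 0.4).

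The median stroma 1 nucleus had 5010.5 and 6120 open peaks in the P0 samples, 1919.5 in the P21 sample, and 2466 and 4547 in those of P56. Both P0 medians were above the adult ones (5565 ± 785, SD, n = 2, and 2978 ± 1386, n = 3, exact permutation p = 0.2). Stroma 1 was shallower than all nuclei of the same sample in each of the 5. Pooled over samples its median was 4899, above that of endothelial cells (3409.5) and podocytes (3647.5) and below that of nephron progenitors (6317) and PST (7860). The share of nuclei with an open peak depends on depth, so values after thinning each nucleus to 1000 open peaks are given for some results. Thinning left out 17 and 10 stroma 1 nuclei at P0 and 19, 14 and 4 in the adult samples. The open calls summed over stroma 1 were 3823908 and 3219102 at P0 and 294254, 297465 and 536670 in the adult samples, so the adult values carry more counting error. Across 17657 genes the activity profiles of the P0 samples correlated with r = 0.982, those of the adult samples with 0.795 to 0.876, and P0 with adult with 0.671 to 0.748. P56 replicate 1 stood somewhat apart from the other adult samples, with 0.795 and 0.824 against 0.876 between P21 and P56 replicate 2. Of the barcodes, 477 occurred in more than 1 sample, 50 stroma 1 nuclei carried one of them, and 2 were shared by stroma 1 nuclei of 2 samples.

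**Figure D1:**
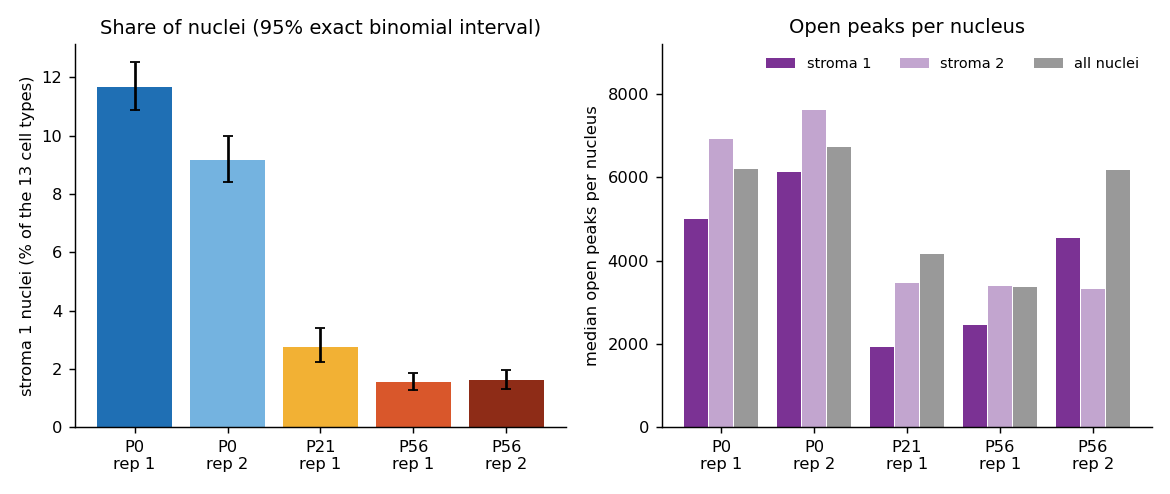
Left, the share of stroma 1 nuclei among the nuclei of the 13 cell types in each of the 5 samples, in percent, with the exact 95% interval. Right, median open peaks of the nuclei of stroma 1, in stroma 2 and in all nuclei. The P0 shares lie at 11.7% and 9.17% and the adult ones between 1.54% and 2.77%, and the stroma 1 median lies below that of all nuclei in every sample.

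The name of the cluster was set beside Col3a1, which encodes a fibrillar collagen of interstitial tissue, and 8 stroma marker genes, those the study's authors used. The paper named the clusters from the accessibility of known marker genes in these nuclei, so these values describe the label and cannot test it. The same holds for the markers of other cell types. The Col3a1 start peak (chr1:45311170-45311947, mm10) was open in 65 of 690 and 43 of 491 nuclei at P0, which is 9.42% (exact 95% interval 7.35 to 11.8) and 8.76% (6.41 to 11.6). In the adult samples it was open in 1 of 90, 1 of 107 and 3 of 101 nuclei, or 1.11% (0.0281 to 6.04), 0.935% (0.0237 to 5.10) and 2.97% (0.617 to 8.44). Thinned to 1000 open peaks the mean over the 5 samples was 1.07%, and the share was the highest of the 12 clusters in 3 samples, with no open call left at P21 and in P56 replicate 1. These intervals cover counting error only. Summed over the whole gene, Col3a1 activity was 28.5 and 22.1 CPM at P0 and 13.6, 10.1 and 14.9 in the adult samples. This was above each of the 11 clusters in all 5 samples, podocytes being next with a mean of 5.92. The adult values rested on only 4, 3 and 8 open calls, so the adult ranks are uncertain.

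Of the other stroma markers, Col1a1 (the main collagen of bone, skin and scar), Acta2 (smooth muscle actin), Mgp (matrix Gla protein, an inhibitor of calcification), Dcn (decorin) and Fbln5 (an elastic fibre protein) had a higher fitted activity in stroma 1 than in each of the 11 clusters. Igfbp3, which binds insulin-like growth factors, did not, with 24.5 CPM in stroma 1 and 54.5 in endothelial cells. Only 1 of the 8, Col1a1, passed the threshold against each of the 11, and 0 did without either P0 replicate, without P56 replicate 2 or without the sample block. In all, 7 of the 8 were highest in stroma 1 of the 12 clusters, against 1498 of the 23847 genes tested (6.28%). Markers of other cell types were below the levels of the clusters they mark. The summed podocyte markers were at 652 to 733 CPM against a mean of 1939 in podocytes, and the summed immune markers at 48.8 to 74.8 against 661 in immune cells. C1qa, a complement gene of macrophages, was at 0.262 in P0 replicate 1 and at 0 in the other samples (31.2 in immune cells). Of 64 markers of nephron progenitors, podocytes, proximal tubule, distal nephron, endothelium and immune cells that were tested, 0 were highest in stroma 1. The summed endothelial markers were nonetheless at 367 to 659 CPM in stroma 1 against 336 to 409 in stroma 2 and a mean of 2509 in endothelial cells.

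At peak level, 114 of 60823 tested peaks (0.187%) led in stroma 1, which means that they were higher in stroma 1 than in each of the 11 clusters, the largest of the 11 p-values passing a Benjamini-Hochberg (BH) threshold of 0.05 in the quasi-likelihood test of edgeR. The clusters were made on the same nuclei, so this is a ranking of peaks and not a test of the cluster, and no p-value is given for it. The count varied with the samples used. In the P0 samples alone it was 6208 of 151645 tested peaks, and in the adult samples alone 13 of 53867. It was 32 of 57585 without P0 replicate 1, 6 of 54127 without P0 replicate 2, 267 of 81335 without P21 and 179 of 74909 without P56 replicate 1. After thinning, 0 of 11933 tested peaks led by edgeR, with 16 at an unadjusted p under 0.05. The share was highest in stroma 1 in all 5 samples for 92 of the 114. Over the 114, the median share of stroma 1 nuclei was 17.2% and 19.8% at P0 and 5.56%, 7.48% and 9.90% in the adult samples, and 3.12%, 2.70%, 2.82%, 2.15% and 2.06% after thinning. Together the 114 peaks took 0.376% and 0.363% of all stroma 1 open calls at P0 and 0.216%, 0.326% and 0.237% in the adult samples.

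The cluster next below stroma 1 was most often endothelial cells, for 36 of the 114 peaks, then podocytes and nephron progenitors with 18 each. Gene starts were less common among the leading peaks than among the tested peaks, but more common than among all peaks. Their median distance to the start of the nearest protein coding gene was 26628 bp against 7351 bp in the tested peaks and 20321 bp in all 300755, 16.7% lay over a gene start against 26.96% and 7.43%, and 71.1% were intronic or distal against 57.9% and 78.3%. By element, 42 were distal, 39 intronic and 30 overlapped an exon (untranslated parts included). The other 3 lay before a transcript start, in a window longer than the 2 kb used for gene activity. Their GC content in the central 300 bases averaged 47.8%, against 53.1% in the tested peaks and 47.2% in all peaks.

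Of the 114 leading peaks, 4 are printed here because they span the range of what was found, with the central 300 bases of each from GRCm38 (mm10), forward strand. The peak near Grik1 had the largest margin over the other clusters, the Fhl2 and Cald1 peaks are intronic in genes of the contractile apparatus, and the Aspn peak was more open in adult than in P0 nuclei. Capitals mark matches to the motifs searched, which are spelled out further on.
Grik1 peak, chr16:87876146-87876445: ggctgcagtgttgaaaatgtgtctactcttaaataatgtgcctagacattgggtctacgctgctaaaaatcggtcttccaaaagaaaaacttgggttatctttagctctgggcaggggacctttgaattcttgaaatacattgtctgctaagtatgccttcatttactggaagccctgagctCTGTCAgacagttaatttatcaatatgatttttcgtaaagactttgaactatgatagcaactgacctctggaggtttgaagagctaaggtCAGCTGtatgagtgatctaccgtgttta
Fhl2 peak, chr1:43181217-43181516: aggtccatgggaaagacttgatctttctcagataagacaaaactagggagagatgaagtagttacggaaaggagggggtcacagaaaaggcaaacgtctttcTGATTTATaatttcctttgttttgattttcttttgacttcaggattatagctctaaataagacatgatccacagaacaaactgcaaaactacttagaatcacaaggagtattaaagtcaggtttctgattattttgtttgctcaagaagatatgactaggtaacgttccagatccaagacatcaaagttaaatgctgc
Cald1 peak, chr6:34692031-34692330: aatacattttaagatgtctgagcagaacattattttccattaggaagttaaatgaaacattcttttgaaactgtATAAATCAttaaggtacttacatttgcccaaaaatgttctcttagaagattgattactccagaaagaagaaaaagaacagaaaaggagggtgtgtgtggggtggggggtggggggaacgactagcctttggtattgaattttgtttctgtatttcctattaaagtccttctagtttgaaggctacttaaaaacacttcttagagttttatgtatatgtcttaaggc
Aspn peak, chr13:49546750-49547049: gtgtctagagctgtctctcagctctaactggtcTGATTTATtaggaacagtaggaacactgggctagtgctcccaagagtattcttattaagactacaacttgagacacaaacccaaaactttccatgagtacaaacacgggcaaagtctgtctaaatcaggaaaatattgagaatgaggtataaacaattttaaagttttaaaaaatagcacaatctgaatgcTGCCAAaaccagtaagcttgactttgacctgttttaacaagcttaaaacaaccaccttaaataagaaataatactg

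The Grik1 peak (chr16:87875837-87876754) is distal, 47077 bp from the start of Grik1, which encodes a kainate-type glutamate receptor. It was open in 11.6% and 11.4% of stroma 1 nuclei at P0 and in 5.56%, 4.67% and 6.93% in the adult samples. The mean of 8.03% ± 3.27 (SD, n = 5) compares with 1.73% ± 1.68 in stroma 2 and 0.665% in nephron progenitors, the highest of the 11 clusters. Even the lowest stroma 1 sample was therefore above the highest value of that cluster, 1.92%. A distal peak 216667 bp from Fam155a (chr8:9106011-9106621) behaved alike, with 14.8% and 11.6% at P0, 4.44%, 3.74% and 5.94% in the adult samples and a mean of 1.73% in stroma 2. After thinning the Grik1 shares were 2.53% and 2.08% at P0 and 2.82%, 1.08% and 2.06% in the adult samples. The Fam155a shares were then 1.78% and 2.49% against 2.82%, 1.08% and 2.06%, so the stages overlapped for both peaks. These peaks were 2.18 ± 0.29 (SE) and 2.33 ± 0.25 higher than in stroma 2 on the log2 scale, the largest such differences among the 12 named peaks. Both stromal clusters come from one clustering of these nuclei, so differences between them are a description and not a test.

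A peak near Aoc3 covers the start of Aoc3, an amine oxidase of vascular smooth muscle. Its shares were 9.28%, 14.5%, 6.67%, 7.48% and 11.9% in the order P0 replicates 1 and 2, P21, P56 replicates 1 and 2. The stages overlapped, and the P0 to adult change was 0.14 ± 0.33 on the log2 scale (edgeR adjusted p = 0.776). Stroma 2 had 3.02% ± 1.44, and the difference of 1.80 ± 0.26 on the log2 scale was the third largest among the named peaks. The Fhl2 peak (chr1:43181008-43181725) lies in an intron of Fhl2, a LIM-domain protein of muscle and fibroblasts. It was open in 20.4% and 17.7% of P0 nuclei and in 3.33%, 4.67% and 6.93% of adult ones, and every P0 share was above every adult one. Peaks entered the stage fit when at least 2 samples reached 18.6 CPM, and this peak did so at P0 alone, so no test between stages is given for it.

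The Cald1 peak (chr6:34691628-34692732) lies in an intron of Cald1, which encodes the actin-binding protein caldesmon. Its shares of 15.7%, 17.7%, 7.78%, 12.1% and 8.91% were lower in the adult samples, without passing the test between stages (−0.23 ± 0.30, edgeR adjusted p = 0.582). After thinning the shares were 2.82%, 1.46%, 4.23%, 2.15% and 2.06%, and the stages overlapped. The Aspn peak (chr13:49546700-49547098) lies in introns of Aspn, which encodes the matrix protein asporin, and of Cenpp, which overlaps it on the other strand. It was open in 6.52% and 7.13% of P0 nuclei and in 8.89%, 13.1% and 10.9% of adult nuclei, although the adult nuclei were shallower. It reached the count limit of the stage fit in adult alone, so no test is given. A distal peak near the prostaglandin transporter gene Slco2a1, which reached it in both stages, had 12.2%, 14.5%, 14.4%, 8.41% and 22.8%, with a log2 change of 0.73 ± 0.27 (edgeR adjusted p = 0.0222).

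A peak in an intron of Ror1, a Wnt5a receptor (chr4:100247795-100248830), was among the most open, at 33.8% and 36.5% at P0. In the adult samples it was at 8.89%, 9.35% and 8.91%, and the change was −1.41 ± 0.24 (adjusted p = 9.71e-07). Stroma 2 had it open in 21% ± 5.19, so it marked both stromal clusters. A peak 10415 bp from Col8a2, a short-chain collagen, lies in an exon of the neighbouring gene Trappc3 (chr4:126275371-126276378). It went from 22.8% and 25.9% at P0 to 3.33%, 4.67% and 7.92%, and reached the count limit at P0 alone, so no test is given. The remaining named peaks, near Hs3st4, Triqk and Tns3, had mean shares of 10.8%, 11.3% and 6.49% in stroma 1 and 8.55%, 11.3% and 10.3% in stroma 2. Of the 12 named peaks, 4 had a mean share in stroma 1 no higher than in stroma 2, namely those near Triqk, Slco2a1, Ror1 and Tns3. In the fit, which scales for depth, Ror1 (0.48 ± 0.17) and Triqk (0.30 ± 0.16) were on the side of stroma 1, and Slco2a1 (−0.34 ± 0.12) and Tns3 (−0.48 ± 0.20) on that of stroma 2, and none of the 4 passed the threshold. With stroma 2 among the other clusters in the fit, Ror1 and Triqk turned to −0.27 and −0.035.

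**Figure D2:**
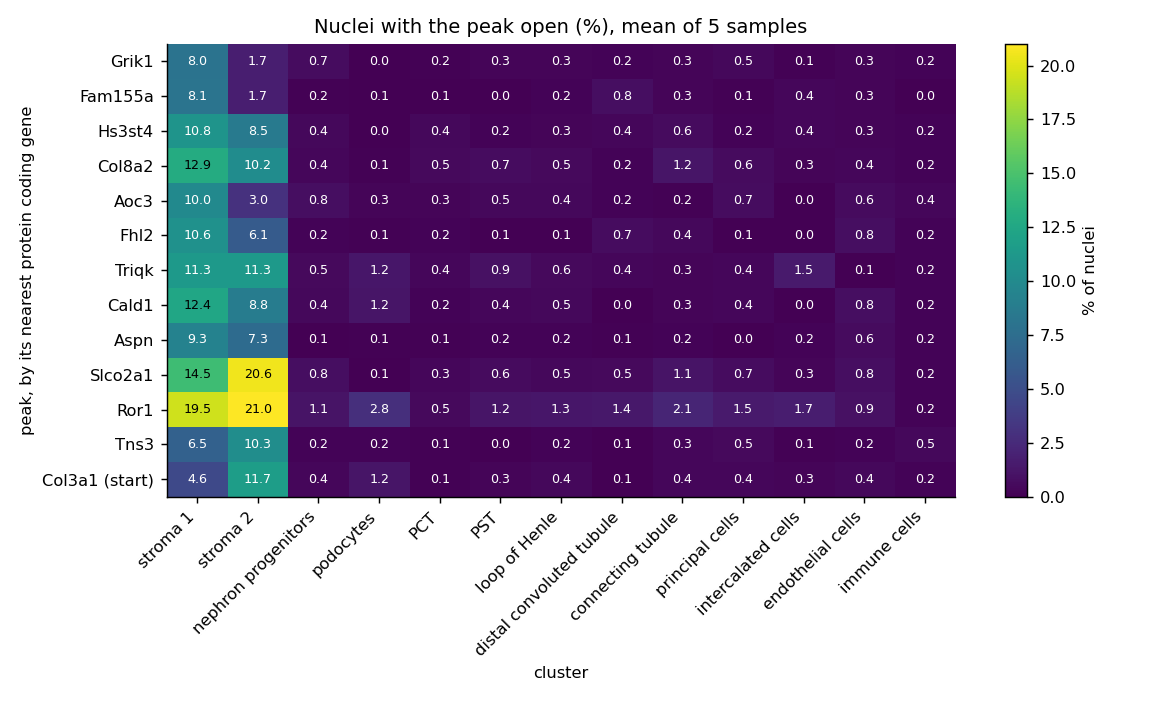
Mean share of nuclei with the peak open over the 5 samples, in percent, for the 12 named leading peaks and the Col3a1 start peak (rows) in the 13 cell types (columns). Stroma 1 stands out from the 11 clusters that are not stromal in each row, while the stroma 2 column holds values from 1.73% to 21%, so that the peaks near Grik1, Fam155a and Aoc3 separate the stromal clusters most clearly.

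Of the 114 leading peaks, 13 have as nearest protein coding gene 1 of 11 members of the stromal, matrix and mural lists (11.4%), against 447 of the 60823 tested peaks (0.735%). They were singled out after their values were seen. Nr2f2, which encodes the orphan nuclear receptor COUP-TFII, had 3 of them, all distal. The one 429191 bp from its start (chr7:70795926-70797076) was open in 34.6% and 45.4% of nuclei at P0 and in 2.22%, 2.80% and 11.9% in the adult samples. A distal peak 18806 bp from Mgp (chr6:136894629-136895618) was at 35.07% and 35.03% at P0 and 5.56%, 4.67% and 13.9% in the adult samples. In both, every P0 sample was above every adult one.

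The others lay near Agtr1a (the angiotensin II receptor of vessels and mesangium), Pdgfrb, Col1a1, Col1a2, Heyl (a Notch target of mural cells), Twist1, Acta2, Col12a1 and Cald1. A peak over the start of Acta2 (chr19:34254362-34255854) had nearly even shares, with 15.1%, 13.8%, 12.2%, 15.0% and 12.9% in the 5 samples. It was next most open in principal cells with a mean of 5.25%. A peak over the start of Twist1, a basic helix-loop-helix factor of mesenchyme (chr12:33956998-33958965), had 23.0%, 28.3%, 10.0%, 4.67% and 13.9%, and 11.7% in stroma 2. Mean shares were higher in stroma 2 than in stroma 1 near Mgp (26.4% against 18.8%), Pdgfrb (23.1% against 11.8%) and Agtr1a (16.5% against 7.82%). So were those near Heyl, Col1a2 and Acta2, and of the Nr2f2 peaks 429191 bp (24.9% against 19.4%) and 455640 bp from its start. Shares near Cald1, Col1a1, Twist1 and Col12a1, and of the Nr2f2 peak 242193 bp from its start, were higher in stroma 1. These shares are not scaled for depth. The median stroma 2 nucleus had more open peaks than that of stroma 1 in every sample but P56 replicate 2 (3311 against 4547). The part of depth in these differences was not tested.

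Motifs were counted in the central 300 bases on both strands, as a description of letters and not of bound factors. A Hox and Pbx sequence (TGATTTAT) was in 8 of the 114 leading peaks (7.02%) and in 1.26% of tested peaks, and among the 81 intronic and distal leading peaks in 9.88% against 1.66%. The Fhl2, Cald1 and Aspn sequences above hold it. An Ebf sequence (TCCCNNGGG) was in 14.0% against 7.06%, and in 16.0% against 5.87% of the intronic and distal peaks. The CArG box, the element of serum response factor in smooth muscle genes, was in 5.26% against 1.38%, and the TEAD sequence (ACATTCC) in 10.5% against 6.12%.

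Of the other sequences, AP-1 (TGANTCA) was in 3.51% against 9.35%, Meis and Tgif (TGACAG) in 13.2% against 20.6%, and Ets (CCGGAAG) in 1.75% against 4.91%, each less common in the leading peaks. The NFI sequence (TTGGCA) was in 18.4% against 17.2%, the E-box CAGCTG in 26.3% against 21.6%, forkhead (TGTTTAC) in 7.02% against 4.57%, and Runx (TGTGGTT) in 8.77% against 5.76%, each more common in the leading peaks. Of the tubule factors, Hnf1 (GTTAATNAT) was in 0.877% against 1.87%, and Hnf4 (CAAAGTCCA) in 0 of 114, which allows a share of up to 2.63%, against 1.01%. The leading peaks are longer than the tested ones (median 976.5 against 775 bp), and over whole peaks AP-1 was in 15.8% against 21.9%, Meis and Tgif in 50.9% against 45.8%, Hox and Pbx in 12.3% against 3.47%, Ebf in 34.2% against 18% and the CArG box in 13.2% against 3.92%. Hnf4 was in 2.63% of whole leading peaks against 2.23%. The directions for Meis and Tgif and for Hnf4 thus turned with the window, and matches of one motif may overlap those of another.

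At gene level, 63 of 23847 tested genes (0.264%) led in stroma 1 over each of the 11 clusters, of which 42 were protein coding. As for peaks this is a ranking, with 5 genes without the sample block, 14 without P0 replicate 1, 9 without P0 replicate 2, 660 in the P0 samples alone, 7 in the adult samples alone and 8 after thinning. In the other direction 1 gene, the noncoding Lrp8os3, was lower than in each of the 11. The activity of 45 of the 63 was highest in stroma 1 in all 5 samples. The next cluster was most often nephron progenitors (17 genes), endothelial cells (10) or principal cells (9).

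Of the named leading genes, Aspn encodes a matrix protein. Aspn activity was 35.6 and 36.03 CPM at P0 and 44.2, 73.96 and 37.3 in the adult samples. Its mean of 45.4 ± 16.3 compared with 8.84 in endothelial cells, and it was at least 2.10 higher on the log2 scale than in any of the 11 clusters. Ogn, which encodes the small leucine-rich proteoglycan osteoglycin, had 14.4, 14.0, 23.8, 23.5 and 20.5, and led by 2.73. Both lie inside Cenpp, which also led, and open calls over the overlap count for each. Cd248, the surface glycoprotein endosialin of pericytes and fibroblasts, was the most even of the named genes, at 34.8 and 36.03 at P0 and 34.0, 40.3 and 35.4 in the adult samples, with 10.2 in endothelial cells.

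Myl9, a smooth muscle myosin light chain, had 45.2, 46.9, 54.4, 118 and 52.2 CPM. Rgs5, a regulator of G protein signalling in pericytes, had 64.9, 59.3, 37.4, 70.6 and 41.0. Both were highest in P56 replicate 1 and above each of the 11 clusters in every sample, but higher still in stroma 2 on the average (77.2 and 78.7). Gucy1b1, a subunit of the nitric oxide receptor, had 95.5, 85.4, 44.2, 87.4 and 41.0, and Fhl2 had 256, 224, 133, 182 and 139.8. In a fit with stroma 2 among the other clusters, the smallest log2 difference turned negative for Gucy1b1 (−0.37) and Fhl2 (−0.41).

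Aoc3 activity was 33.2, 38.2, 20.4, 53.8 and 33.5 CPM, with 16.1 in stroma 2 and 14.0 in loop of Henle, the next of the 11. Twist1 had 42.9 and 44.4 at P0 and 34.0, 16.8 and 28.0 in the adult samples, with 22.8 in stroma 2 and 8.42 in principal cells. Fgf2, a fibroblast growth factor, had 138.6, 119.6, 44.2, 53.8 and 83.9. Ppp1r1c, a regulatory subunit of protein phosphatase, had 141, 115, 74.8, 104 and 85.7, with 71.2 in stroma 2. Lrriq1 and Otogl completed the named genes, with means of 56.3 ± 50.5 and 45.2 ± 13.6. With stroma 2 among the other clusters, the smallest log2 difference of Lrriq1 turned to −0.28.

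Noncoding genes in the lead included Carmn, a long noncoding RNA of smooth muscle, with a mean of 218 CPM, and Dnm3os with the microRNA gene Mir199a-2 inside it. Dnm3os and Mir199a-2 share peaks with each other and with Dnm3, in which they lie, so they are one locus. Other leaders, given by their smallest log2 difference to any of the 11 clusters, were the globin Cygb of fibroblast-like cells (2.34), the collagen receptor Ddr2 (1.26), the tropomyosin gene Tpm2 (0.87) and Agtr1b (2.11), which is close in sequence to Agtr1a, so its reads may be split between the pair.

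**Figure D3:**
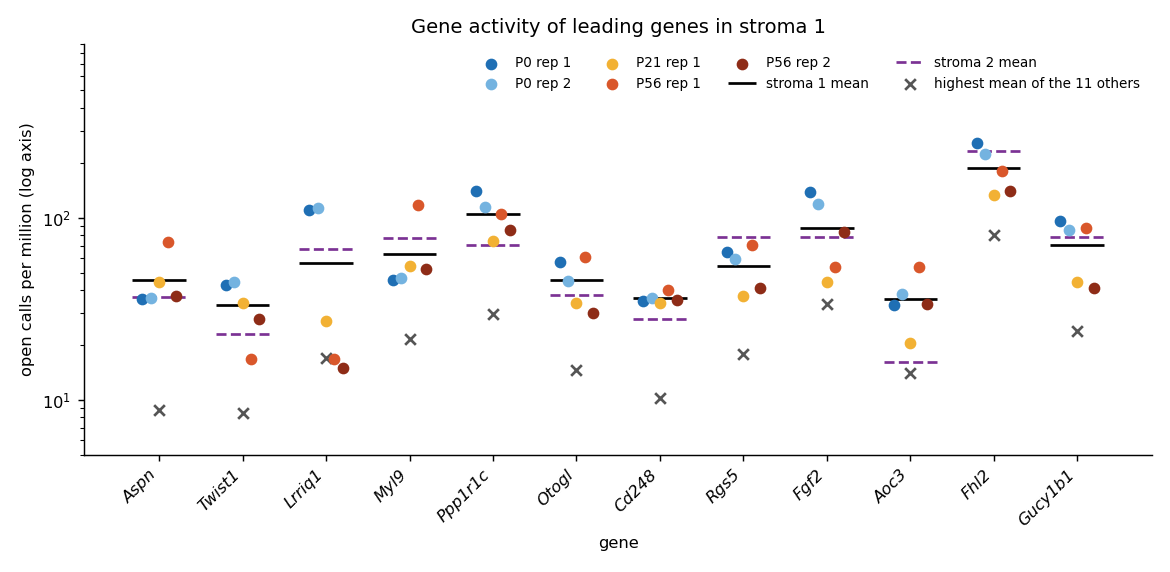
Gene activity of the 12 named leading genes in stroma 1, in CPM on a log axis, 1 point per sample coloured by sample. The solid line is the stroma 1 mean, the dashed line the stroma 2 mean and the cross the highest mean among the 11 clusters that are not stromal, which lies below every stroma 1 mean.

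The lists of stromal genes, written with earlier results of these data known, were counted in the same fit. Of 26 transcription factors and receptors tested, 4 led (Twist1, Alx1, Pdgfra and Pdgfrb) and 12 were highest of the 12 clusters, with a median difference of 1.14 on the log2 scale to the mean of the 11 clusters, against −0.01 over all genes tested, of which 0.264% led and 6.28% were highest of 12. Pdgfra and Pdgfrb encode the receptors by which platelet-derived growth factors act on fibroblasts and pericytes. Pdgfra activity was 85.5 and 92.9 at P0 and 44.2, 43.7 and 52.2 in the adult samples, and Pdgfrb 132 and 140.1 and 61.2, 101 and 108. Alx1, a homeobox factor of mesenchyme, had 61.7 and 55.6 against 13.6, 10.1 and 9.32. For these 3 genes every P0 sample was above every adult sample, and stroma 2 had a higher mean in each. Such a separation was common. Of 17657 genes tested between stages, 2922 were higher at P0, and 2746 of these showed it. Alx1 reached the count limit of the stage fit at P0 alone.

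Factors that the kidney stroma is known for were not all leaders. Foxd1 was at 37.7, 33.2, 10.2, 20.2 and 29.8 CPM against 74.9 in podocytes, which also use it. Tcf21 was at 81.3 and 67.1 at P0 and 6.80, 10.1 and 14.9 in the adult samples, against 92.0 in podocytes. Meis1 (197 ± 39.8), Nr2f1 (63.8 ± 14.3) and Twist2 (38.5 ± 13.7) were above each of the 11 clusters in all 5 samples without passing the threshold.

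Over all genes tested 0.264% led and 6.28% were highest of 12. Of 30 matrix genes tested 4 led (Col1a1, Col8a1, Ogn and Fbn1), 18 were highest of 12 and the median difference was 1.56. The 4 became 0 without either P0 replicate or the sample block, 1 without P21 and 2 without either P56 replicate. The 4 factors and receptors became 2 without P0 replicate 1, 1 without P0 replicate 2, and 0 without the block or after thinning. The 1 mural gene became 0 with any sample left out. Fbn1, which encodes the microfibril protein fibrillin 1, had 153 and 174 at P0 and 68.0, 87.4 and 104 in the adult samples, with 227 in stroma 2. Of 20 mural genes, which mark smooth muscle, pericytes, mesangium and renin cells, 1 led (Rgs5), 14 were highest of 12 and the median was 1.53. Ednra, the endothelin receptor of contractile cells, was above the 11 clusters in all 5 samples, with 80.5, 74.6, 71.4, 94.1 and 52.2 against 28.2 in nephron progenitors. Ren1, which encodes renin, was at 13.6, 12.4, 23.8, 20.2 and 13.04, and was highest of the 12 clusters in 4 samples. Its adult values rested on only 7, 6 and 7 open calls.

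Fewer members of the signalling lists were highest. Of 16 retinoic acid genes 0 led and 4 were highest, with a median of 0.52. Of 13 hedgehog genes 0 led and 3 were highest (median 0.42), and of 23 genes of TGF-beta and BMP signalling 0 led and 2 were highest (median 0.26), where 6.28% of all genes tested were highest. Crabp1 and Crabp2, which carry retinoic acid in the cytoplasm, were each highest of the 12 clusters in 3 samples, with 33.7 and 32.3 at P0 for Crabp1 and 28.5 and 30.4 for Crabp2. Gli1, a transcription factor and target of hedgehog signalling, was above the 11 clusters in all 5 samples, with 55.4, 66.2, 44.2, 43.7 and 46.6, though it did not pass the threshold. Tgfb2, a ligand, was the same in that respect, with 91.5, 82.6, 57.8, 67.2 and 57.8.

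Over the 23847 genes the activity profile of stroma 1 was most like that of stroma 2, with a Pearson correlation across genes of 0.961 (log2 of the mean activity in CPM plus 5). Nephron progenitors (0.909), podocytes (0.908) and endothelial cells (0.897) followed, and immune cells were last (0.815). Stroma 2 was first in each of the 5 samples, from 0.876 at P21 to 0.972 in P0 replicate 1. The second cluster was nephron progenitors in both P0 samples, and loop of Henle, endothelial cells or principal cells in the adult samples. Genes are not independent replicates, and these values share the depth of each library.

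Set beside stroma 2, stroma 1 was higher for 905 of 21426 genes (4.22%) and lower for 1529 (7.14%). The counts were 195 and 591 without P0 replicate 1, 170 and 566 without P0 replicate 2, and 426 and 1053 with DESeq2. Both clusters come from one clustering of these nuclei, so the counts describe how they were divided. Genes named here are protein coding, with at least 30 CPM in the higher cluster and the same direction in every sample. Among these the farthest above stroma 2 was Cmklr1, the chemerin receptor. It had 56.7, 52.2, 37.4, 90.8 and 80.1 CPM against a mean of 16.8 (log2 difference 1.44 ± 0.19), though endothelial cells had 147. Drd3, Stac, Fam163a, Gja1 (the gap junction protein connexin 43) and Pdgfc followed with 1.18 to 1.36. Pdgfc, a ligand of Pdgfra, had 79.2, 76.4, 112, 141 and 121 against 35.8 in stroma 2. The first such genes below stroma 2 were Adam12, a metalloprotease of activated mesenchyme (91.8 ± 18.9 against 285 ± 49.6, −1.60 ± 0.16), Kcnd3, Tmprss5, Col14a1, Bok and Aqp9.

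Matrix genes were the list with the most members below stroma 2, with 11 of 31 lower and 1, Mgp, higher, against 7.14% and 4.22% of all genes. Col3a1 itself was lower, at a mean of 17.8 ± 7.39 against 34.9 ± 8.29, as were Fbln5 (71.6 against 188) and Col15a1 (71.5 against 157). Of 20 mural genes 6 were lower and 1 higher, Gata3, which is known from mesangial cells (85.5 against 34.2). The mural count of 6 was 2 when either P0 replicate was left out, 2 of 17 after thinning and 0 without the sample block. The matrix count of 11 was 5 of 25 after thinning and 2 without the block, and 0 matrix genes were higher in these fits or without either P0 replicate. Of the 26 factors and receptors, Twist1, Nr2f1 and Ebf2 were higher and Prrx1, Zeb2, Tshz3 and Alx1 lower, with 0 higher when either P0 replicate was left out, after thinning or without the block. With stroma 2 counted among the other clusters, 0 of 25393 genes led by edgeR, with 46 at an unadjusted p under 0.05. Without the sample block, 37 genes were higher and 190 lower than in stroma 2.

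Between stages, 2922 of 17657 genes (16.5%) were higher at P0 in stroma 1 and 2470 (14%) higher in adult at an adjusted p of 0.05 in edgeR. These are tests of 2 against 3 samples. The clusters were made after a correction across samples, each of which belongs to 1 stage, so the sample entered the definition of the cluster. A gene entered the fit when 2 samples reached 17.2 counts in 1000000, and 14095 did so in at least 2 samples of each stage, of which 1659 were higher at P0 and 1870 in adult. Another 976 reached it at P0 alone and 932 in adult alone, so that the filter favoured genes that are high in 1 stage. All 16 genes named between stages are of these kinds, so their values are a description with no test between stages. The counts of all genes were 1141 and 573 of 17033 tested without P0 replicate 1, and 1468 and 745 of 17014 without P0 replicate 2. They were 1296 and 1074 of 22511 without P56 replicate 2, and 437 and 267 of 3050 after thinning. The named genes with P0-directed changes included 3 receptors, Tacr1, Ntsr1 and Htr2b. Tacr1, the substance P receptor, had 42.1 and 37.0 CPM at P0 and 0, 0 and 3.73 in the adult samples. Ntsr1, a neurotensin receptor, had 94.9 and 95.7 against 10.2, 0 and 13.04. Mfap4, a microfibril-associated protein, had 67.7 and 64.9 against 6.80, 6.72 and 3.73. The others of the named genes were Nrsn1, Tac2, Adamts19, Htr2b and Sox11.

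Of the 30 matrix genes tested between stages, 23 were higher at P0 and 0 in adult, with a median change of −1.11 on the log2 scale, where the median of all genes was 0.01. Lama2, a chain of the laminin of basement membranes, had 171 and 161 at P0 against 44.2, 63.9 and 27.9 (−2.13 ± 0.22, adjusted p = 4.75e-07). Vcan, the proteoglycan versican, had 107 and 102 against 51.0, 23.5 and 13.04 (−2.17 ± 0.27). Col1a1 had 77.7 and 81.4 against 30.6, 43.7 and 42.9 (−1.14 ± 0.20, adjusted p = 0.000193). Sparc (−0.16 ± 0.18) and Col15a1 (−0.15 ± 0.17) were among the 7 that did not pass. Of the 30, 22 reached the count limit in both stages, and 16 of these were higher at P0, against 1659 of all 14095 such genes. Without the filter 25 of all 32 members were. The count was 14 without P0 replicate 1, 15 without P56 replicate 2 and 8 of 10 tested after thinning, with 0 higher in adult in each.

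Of the 25 factors and receptors, 16 were higher at P0 and 0 in adult, with a median of −0.68, against 16.5% and 14% of all genes tested. Tbx18, a T-box factor of the ureteric and vascular mesenchyme, had 32.4 and 29.8 against 3.40, 3.36 and 3.73, and like Tcf21 reached the count limit at P0 alone, so neither is given a test. Dchs1 (−1.81) and Fat4 (−1.58), the protocadherin pair of stromal signalling, were higher at P0. Nr2f2 gene activity was even, with 125 and 120.2 at P0 and 153, 128 and 142 in the adult samples (0.05 ± 0.15), while the distal peak given above was most open at P0. Of the 25, 20 reached the count limit in both stages, and 13 of these were higher at P0, against 1659 of all 14095 such genes. Without the filter 17 of all 27 members were. The factor and receptor count was 8 without either P0 replicate, 9 without P56 replicate 2 and 4 of 9 tested after thinning.

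Of the signalling lists, 8 of 15 retinoic acid genes were higher at P0 and 1 in adult. Aldh1a2, which makes retinoic acid, had 70.6 and 73.6 against 20.4, 37.0 and 18.6, and Crabp1 and Crabp2 reached the count limit at P0 alone, whereas Rxra, the heterodimer partner of the receptors, was higher in adult (0.68 ± 0.14, adjusted p = 0.000702). Of 12 hedgehog genes 6 were higher at P0, among them Gli2 with 316 and 303 against 71.4, 118 and 134.2 (−1.61 ± 0.18), and 1, Ihh, in adult, which reached the count limit in adult alone. Of 22 TGF-beta and BMP genes 4 were higher at P0 and 3 in adult, shares near those of all genes tested (16.5% and 14%). Of the genes that reached the count limit in both stages, 4 of 11, 5 of 9 and 4 of 21 were higher at P0 in the 3 lists. Over all such genes it was 1659 of 14095. Without the filter the list counts were 8 of 16, 7 of 13 and 5 of 23. The P0 counts of the retinoic acid, hedgehog and TGF-beta lists were 5, 3 and 1 without P56 replicate 2, 5, 4 and 1 without P0 replicate 2, and 6, 4 and 1 without P0 replicate 1. After thinning they were 0 of 5, 3 of 6 and 1 of 9 tested. The 3 TGF-beta and BMP genes higher in adult were 0 without either P0 replicate, without P56 replicate 2 and after thinning. The 1 retinoic acid gene higher in adult was 0 without either P0 replicate and after thinning.

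The named genes with adult-directed changes were Sult1d1, Kif12, Cyp4b1, Klhdc7a, Pdilt, Pdzk1ip1, Ttll10 and Slc2a2, each of them highest in a tubule cluster among the 12. Slc2a2, the basolateral glucose transporter of the proximal tubule, had 4.18 and 8.39 CPM at P0 and 95.2, 20.2 and 54.0 in the adult samples, against 199 in PCT. Sult1d1, a sulfotransferase, had 1.83 and 2.17 against 51.0, 13.4 and 50.3. Of the 2470 genes higher in adult, 790 (32%) were highest in PCT or PST of the 12 clusters and 66 (2.67%) in stroma 1, against 14.4% and 7.27% of the genes tested.

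Among all genes tested between stages, 14% were higher in adult and 16.5% at P0. Of 5 proximal tubule markers tested, 4 were higher in adult, and of 6 distal nephron and collecting duct markers 5, with 1 higher at P0. Of these, 2 and 3 reached the count limit in adult alone, and without the filter 7 of all 10 and 7 of all 18 were higher in adult. Without P56 replicate 2 the adult-directed counts were 2 of 5 and 1 of 13, and without P56 replicate 1 they were 8 of 8 and 7 of 13. The distal count was 1 of 6 without either P0 replicate. The summed proximal tubule markers were at 127 and 128 CPM in stroma 1 at P0 and at 472, 145 and 397 in the adult samples, where PCT had a mean of 1049. The summed distal markers were at 212 and 226 at P0 and 425, 262 and 423 in the adult samples, with 1100 in distal convoluted tubule. P21 and P56 replicate 2 were thus high in both, and P56 replicate 1 was close to P0. The part of these markers in the stage results was not tested. With P56 replicate 1 as the only adult sample, which was added after the data were seen and takes its spread from the P0 pair, 1135 genes were higher at P0, 950 of them among the 2922, and 935 in adult, 671 of them among the 2470. Slc13a3, a dicarboxylate transporter of the proximal tubule, then changed direction, from 1.74 ± 0.35 to −1.64.

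**Figure D4:**
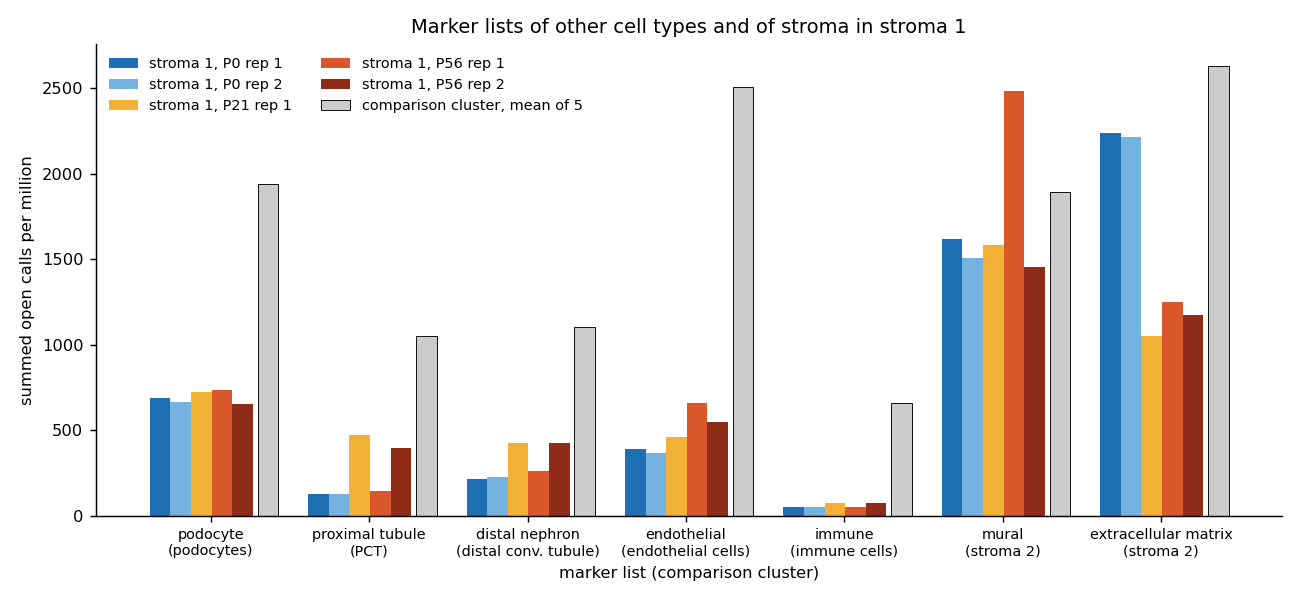
Summed activity of marker lists in stroma 1, in CPM, 1 coloured bar per sample, with a grey bar for the mean of the cluster named under each list, which is stroma 2 for the mural and matrix lists. Proximal tubule and distal markers are highest in the P21 sample and P56 replicate 2 and endothelial markers in P56 replicate 1 at 659, below the grey bars, while the mural bar of P56 replicate 1, at 2484, is above that of stroma 2, at 1895.

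Of 19 mural genes tested, 4 were higher in adult (Tagln, Myh11, Mcam and Lmod1) and 2 at P0 (Itga8 and Kcnj8), with a median of 0.29, where 14% and 16.5% of all genes passed in these directions. The median was 0.08 without P56 replicate 1. Lmod1, an actin nucleator of smooth muscle, had 25.1 and 18.9 CPM at P0 and 47.6, 131 and 46.6 in the adult samples (1.49 ± 0.30, adjusted p = 0.0007). Myh11, the smooth muscle myosin heavy chain, had 36.9 and 31.1 against 54.4, 111 and 44.7 (0.78 ± 0.26, adjusted p = 0.0251). Tagln, the actin-binding protein transgelin, had 22.2 and 19.9 against 40.8, 57.1 and 46.6 (1.03 ± 0.25). For each of these 3 the adult samples were all above P0, with P56 replicate 1 the highest. The adult samples were all above P0 for 2277 of the 2470 genes higher in adult. Itga8, the integrin by which mesangium and stroma bind nephronectin, had 215 and 203 against 85.0, 124 and 46.6 (−1.57 ± 0.22, adjusted p = 1.05e-05). The counts in adult and at P0 were 2 and 1 of 18 without P0 replicate 1, 1 and 2 of 18 without P0 replicate 2, 4 and 5 of 21 without P56 replicate 1, and 10 and 1 of 22 with it as the only adult sample. After thinning they were 0 and 1 of 5.

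Whether a stage change in stroma 1 differed from that of other cells was tested as the adult minus P0 change in stroma 1 less its mean over the 11 clusters. The error of this fit was pooled over stroma 1 and the 11 clusters, with the sample as a block. Its p-values therefore do not measure the spread between stroma 1 samples alone. Of 23847 genes, 1830 (7.67%) differed, 1057 being more adult in stroma 1 and 773 more P0. These were 252 and 294 without P0 replicate 1, 415 and 387 without P0 replicate 2, 682 and 411 without P56 replicate 2, and 118 and 88 after thinning. Of the 20 mural genes 11 were more adult in stroma 1 and 1, Itga8, more P0, with a median difference of 1.03. The 11 were Acta2, Tagln, Myh11, Myocd, Cspg4, Mcam, Gata3, Heyl, Agtr1a, Ednra and Lmod1. Of these, only Tagln, Myh11, Mcam and Lmod1 were also higher in adult within stroma 1 by the test between stages. Lmod1 (2.42 ± 0.35, adjusted p = 3.42e-06) and Ednra (2.30 ± 0.30, adjusted p = 4.17e-07) had the largest differences. Ednra was even within stroma 1 (−0.33 ± 0.20, adjusted p = 0.213), so its difference lay in the mean change of the 11 clusters.

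The mural count was 5 without P0 replicate 1, 6 without P0 replicate 2, 8 without P56 replicate 1, 11 without either of the other samples, and 3 of 11 tested after thinning. Endothelial markers moved with it, with 5 of 12 more adult in stroma 1 (Pecam1, Cdh5, Kdr, Egfl7 and Esam) and 0 more P0, and 2 of 12 without either P0 replicate and 3 without either P56 replicate. Their sum in stroma 1 was 388 and 367 at P0 and 459, 659 and 548 in the adult samples, highest in P56 replicate 1, as was the mural sum (1620, 1506, 1580, 2484 and 1455). The part of endothelial chromatin in the mural result was not tested. Of the 30 matrix genes 1 (Sparc) was more adult and 6 more P0 (Col1a1, Col5a3, Col14a1, Fbln5, Vcan and Lama2), and of the 26 factors and receptors 3 were more adult and 2 more P0. The matrix count of 6 was 4 without P0 replicate 1, P0 replicate 2, P21 or P56 replicate 1, 3 without P56 replicate 2 and 2 after thinning. The 3 and 2 factors and receptors became 0 and 0 without P0 replicate 1 and after thinning, 0 and 1 without P0 replicate 2 or P56 replicate 1, and 1 and 0 without P56 replicate 2.

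**Figure D5:**
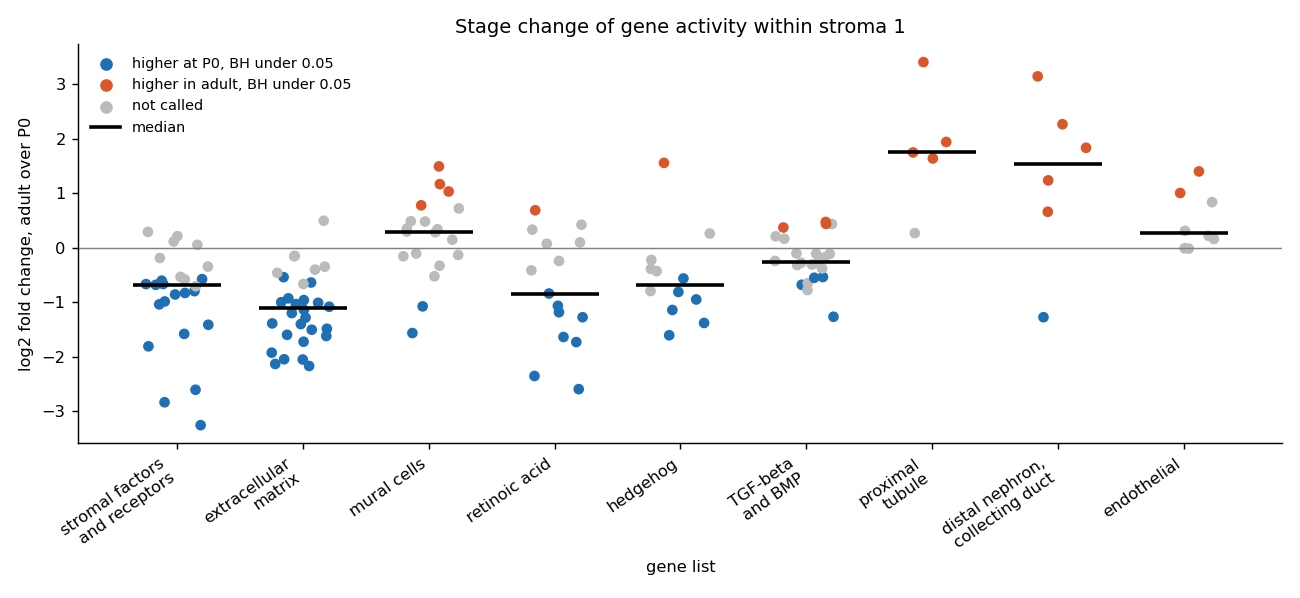
Change from P0 to adult in stroma 1 on the log2 scale for each tested member of each list, coloured by the edgeR call at an adjusted p of 0.05, with the median of each list. The matrix and transcription factor lists lie mostly below 0, with medians of −1.11 and −0.68, the mural list around 0.29, and the proximal and distal tubule markers above 0, with medians of 1.74 and 1.53. The medians are over the members that passed the count filter, which some did through 1 stage alone.

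At peak level, 3197 of 15376 tested peaks (20.8%) were more open at P0 in stroma 1 and 2620 (17%) in adult. With so few adult nuclei most of the peaks that could be tested lay over gene starts, 65.5% of them. Of the tested peaks, 8532 reached the count limit in at least 2 samples of each stage, and of these 531 were more open at P0 and 924 in adult. A further 2256 reached it at P0 alone and 2545 in adult alone, so that the filter favoured peaks that are high in 1 stage. After thinning 1 peak in each direction passed, of 469 tested. The counts at P0 and in adult were 1678 and 509 of 14336 tested without P0 replicate 1, and 2053 and 690 of 14451 without P0 replicate 2. With an adult sample left out more peaks were tested. The counts were then 9585 and 5818 of 47580 without P21, 11538 and 7856 of 48217 without P56 replicate 1, and 7879 and 3833 of 45172 without P56 replicate 2.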

How the data were processed

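The snATAC-seq files were made by the authors with Cell Ranger ATAC 1.1.0 (mm10), a barcode filter (1000 to 40000 fragments, mitochondrial share, promoter ratio), clustering with SnapATAC and Harmony, and MACS2 peaks (q 0.01) called per cell type on pooled nuclei and merged. The deposited counts are a binarized matrix of 28316 nuclei and 300755 peaks, in which 1 means at least 1 fragment in the peak, not scaled for depth, and the deposited annotation gives the sample and cluster of each nucleus. The deposited peak list gives positions only. The bulk ATAC-seq and scRNA-seq data were not used here.

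Open calls were summed per sample and cluster (at least 20 nuclei) and fitted over all peaks or genes with edgeR 4.0.16 (quasi-likelihood test, BH 0.05, TMM scaling, features kept by filterByExpr at min.count 10 and min.total.count 15) in R 4.3.3 with limma 3.58.1, with the sample as a block where clusters were compared. Each standard error was taken from the F statistic, as the size of the log2 change over its root. Gene activity used GENCODE M21. Other steps used matplotlib 3.10.9, scipy 1.17.1, pandas 2.3.3 and numpy 2.4.6 in Python 3.11.15. The scripts were tested on simulated data. Doublets were not searched for, and 20 stroma 1 nuclei had over 15000 open peaks. A total of 89197 stored zeros were read as closed. Of the list genes all were found in the annotation.

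Named peaks are the 12 with the largest smallest log2 fold change among leading peaks open in at least 5% of stroma 1 nuclei and more open than in each of the 11 clusters in every sample, at most 1 per nearest protein coding gene, plus the Col3a1 start. Named leading genes are chosen likewise among protein coding genes with at least 30 open calls in 1000000 and no Gm or Rik symbol, 12 in all. Against stroma 2 they are the 6 in each direction with the largest change past the threshold and the same direction in every sample, and between stages the 8 protein coding genes in each direction whose stages do not overlap, all at that level or more in the higher group. List members may be named too. Members and lists were chosen with earlier results of these data known. The alternatives were DESeq2 1.42.0, its size factors, no filter, other sample sets, thinning to 1000 open peaks, equal nuclei (90 per sample), blocks, Fisher's exact test over nuclei and each sample left out in turn. Some items withheld for evaluation are not reported here.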

Additional observations from a re-analysis of the deposited data

Results flagged for a closer look

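Of the genes named between stages, 11 had a change in stroma 1 that differed from the mean change of the 11 clusters that are not stromal (edgeR interaction, adjusted p under the 0.05 threshold). They had been named for their change between stages in the same stroma 1 samples, so the differences are a description and not independent evidence. The difference was −2.68 ± 0.79 (SE, log2) for Tacr1, −3.60 ± 0.70 for Nrsn1, −2.43 ± 0.70 for Adamts19, −2.91 ± 0.68 for Htr2b, −1.84 ± 0.56 for Mfap4 and −1.71 ± 0.49 for Ntsr1, so these went further toward P0 in stroma 1. It was 2.26 ± 0.55 for Kif12, 2.33 ± 0.36 for Klhdc7a, 2.12 ± 0.45 for Pdzk1ip1, 2.14 ± 0.43 for Ttll10 and 2.22 ± 0.42 for Slc2a2, which went further toward adult. The last 5 are most active in PCT or distal convoluted tubule and were higher at P21 and in P56 replicate 2 than in P56 replicate 1, as were the summed proximal tubule markers in stroma 1. The part of tubule chromatin in these differences was not tested.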

How the results depend on the processing

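Directions of named genes and peaks held under nearly all alternatives, while counts of calls moved with depth and samples. Members named by rule had the same direction or rank in every sample, so for them this was largely fixed in advance. Their calls often weakened. Apart from fits with a sample left out, gene results against the 11 clusters were the same 74 times, weaker 57 times and reversed 11 times. Those against stroma 2 were the same 73 times and weaker 85 times. Leading peaks (114) numbered 131 with DESeq2 and 90 with its size factors, but 6208 in P0 alone, 13 in adult alone, 4325 without the filter, 39 without the replicate block, 0 with stroma 2 among the others (119 of 77118 at an unadjusted p under 0.05), 0 thinned, 10791 by Fisher's test over nuclei, and 6 to 267 with a sample left out. Leading genes (63, DESeq2 49) numbered 660 in P0 alone, 7 in adult alone, 119 without the filter, 5 without the block, 0 with stroma 2 among the others, 8 thinned and 9 to 64 with a sample left out. Against stroma 2, 905 genes higher became 426 with DESeq2, 37 without the block, 91 thinned and 170 to 1209 with a sample left out, and 1529 lower became 1053 with DESeq2, 190 without the block, 299 thinned and 566 to 2142. For peaks, 1778 higher became 847 with DESeq2, 236 without the block, 25 thinned and 218 to 5102, and 4168 lower became 1578 without the block, 180 thinned and 1132 to 8415. Stage peaks higher in adult (2620) numbered 5818 with P56 alone as adult, 1115 with P56 replicate 1 alone, 1218 with equal nuclei, 5755 unfiltered, 1 thinned and 509 to 7856 with a sample left out, and those higher at P0 (3197) 9585, 1788, 1841, 28807, 1 and 1678 to 11538. Without the filter the median change of all peaks moved to −1.21. Stage genes higher in adult (2470) numbered 1338 with DESeq2, 1121 with equal nuclei, 935 with P56 replicate 1 alone, 267 thinned and 573 to 3394 with a sample left out, and those higher at P0 (2922) 1623, 1700, 1135, 437 and 1141 to 3839. Genes more adult in stroma 1 than in the 11 clusters (1057) numbered 118 thinned and 252 to 866 with a sample left out, and those more P0 (773) 88 and 294 to 613. The number of features tested also moved between settings, and reasons other than this or fewer samples were not examined.

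With stroma 2 among the other clusters the smallest log2 difference turned negative for the peaks near Triqk (−0.035), Slco2a1 (−0.72), Ror1 (−0.27) and Tns3 (−0.72) and the genes Lrriq1 (−0.28), Myl9 (−0.64), Rgs5 (−0.73), Fhl2 (−0.41), Gucy1b1 (−0.37), Col1a1 (−0.19), Alx1 (−1.17), Pdgfra (−0.72), Pdgfrb (−0.75), Col8a1 (−0.11) and Fbn1 (−0.98). With P56 replicate 1 alone as adult, an alternative chosen after seeing the data, the stage change turned for Ltbp1 (0.011), Crym (−0.73), Pax2 (−0.53), Slc5a12 (−0.22) and Slc13a3 (−1.64). The interaction turned for Ihh thinned (−0.0098) and for Cyp4b1 without P21 (−0.0013, and up to 0.667 without P56 replicate 2). The P0 minus adult share of nuclei was 7.19 to 9.69 percentage points, the difference in median open peaks 2033 to 3372.5, and the Col3a1 start share 3.44% to 5.56% with a sample left out. P0 and P56 replicates share only numbers (r = 0.144 over 17657 genes for the deviations of number 1). With the replicate block the stage fits called 2470 peaks and 1725 genes in adult and 3113 and 2314 at P0. The adult values rest on 90 to 107 nuclei in a sample, which limits their precision.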
